A study of Danio rerio x Danio aesculapii and Danio rerio x Danio albolineatus and Danio rerio x Danio kyathit with 48 samples.

Results

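Allele-specific expression was measured in melanophore-enriched skin libraries from hybrids between a D. rerio (zebrafish) mother and a D. nigrofasciatus father. In each library, transcripts assigned to the paternal, D. nigrofasciatus allele were compared, gene by gene, with transcripts assigned to the D. rerio allele. Both alleles of a library share the same cells, so the comparison is paired within 3 libraries, replicates 3, 4 and 5, of the 48 libraries in the series. Mitochondrial genes were left out, which leaves 19616 genes. Of these, 18056 had a value above 0 in at least 1 of the 3 libraries and 12012 had one in all 3.

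The melanophore-enriched libraries came from dissociated adult skin sorted on the tyrp1b:mem-mCherry reporter, a membrane-bound red fluorescent protein driven by the regulatory sequence of a melanin synthesis gene. They were set against iridophore-enriched libraries (pnp4a:mem-mCherry) and xanthophore-enriched libraries (aox5:mem-EGFP) of the same hybrid, against its unenriched whole skin, and against the melanophore-enriched libraries of hybrids with a D. aesculapii, D. albolineatus or D. kyathit father. Each group had 3 replicates with the same numbers, and every group was a hybrid with a D. rerio mother. The labels do not say that the replicates were separate fish, so p-values measure only the spread between these libraries, which may be technical.

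Melanophores are the black pigment cells of fish skin. They make melanin in melanosomes from tyrosine, through Tyr, Tyrp1 and Dct, while Pmel forms the fibrils on which melanin is laid down. In zebrafish, melanophores form the dark stripes together with iridophores and xanthophores, and signals such as Csf1, Kit ligand and endothelin act between these cells and the surrounding skin. In a hybrid, both alleles stand in the same nucleus, so a difference between them is usually read as an effect of sequence linked to the gene itself. Differences in how many reads of each allele could be aligned and assigned cannot be told apart from differences in expression in these files.

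Values are allele read counts scaled and rounded by the authors. The 3 libraries had summed values of 6193528, 5759744 and 6084701 in replicates 3, 4 and 5, with paternal shares of 49.49%, 48.99% and 50.27%. Each allele column was scaled on its own, which brings these shares near an even split. They therefore do not measure the overall balance of the alleles. Since a scaled value is not a read number, the value of 1 independent molecule was estimated from the counting spread of the allele share, which gave 68453, 128062 and 87103 molecules in replicates 3, 4 and 5. Allele ratios are given as log2 of paternal over D. rerio, with 0.5 molecules added to each allele and each library centred on its median ratio, so that 1 is a 2-fold difference. A gene was tested if at least 2 of the 3 libraries held 5 or more estimated molecules, and 3052 genes passed. A gene is called changed at a Benjamini-Hochberg adjusted p under 0.05 in limma. Mitochondrial transcripts, inherited from the mother, gave a paternal value of 0 in all 3 libraries, of totals of 182958, 145798 and 67916.

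The label was set against marker genes, on lists chosen with earlier results of these data known. The 20 melanophore markers summed to 153547, 80077 and 130503 in the melanophore-enriched libraries, against 19151, 3505 and 7563 in unenriched skin (replicates 3, 4 and 5), with no overlap. The reporter's gene tyrp1b stood at 68245, 34749 and 72475 against 5218, 219 and 2299. Cells were sorted on this reporter, so the rise of tyrp1b is no separate check of the label. Together, tyrp1b and the melanosome gene pmela held most of the melanophore marker sum in the melanophore-enriched libraries. The transcription factor gene mitfa, however, had 796, 8 and 25 in the melanophore-enriched libraries against 239, 41 and 48 in skin, and so was not tested. Markers of other cells were present. The 19 iridophore markers summed to 37645, 19891 and 30757 in melanophore-enriched libraries, against 36222, 6043 and 6630 in skin. The 18 xanthophore markers summed to 10173, 19155 and 39836, against 6258, 10057 and 15167. Both sums were above skin at each replicate number, with overlap between the groups. The 27 leukocyte genes summed to 176971, 102936 and 110094 in melanophore-enriched libraries, against 81891, 58499 and 57481 in skin, and none of them was at 0 in all 3 melanophore-enriched libraries. The 31 keratinocyte genes summed to 122158, 237193 and 170873 against 352986, 393876 and 249615. The share of other cells in any allele ratio below was not tested, and fewer cells of a type cannot be told apart from less RNA per cell.

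Of the 3052 genes tested, 541 (17.7%) differed between the alleles. The paternal allele was higher at 205 genes (6.72%) and the D. rerio allele at 336 (11%). The median log2 ratio of the called genes was 1.52 where the paternal allele was higher and -1.8 where the D. rerio allele was higher. The tail was longer towards D. rerio: 10 called genes had a ratio of 3 or more, against 42 with -3 or less. In 465 of the 541 genes all 3 libraries had a ratio and its sign was the same in each. The rest are not all genes whose signs differed. They include genes with too few molecules for a ratio in replicate 3, such as epcam and ghrb. With only the 3 melanophore-enriched libraries fitted, 395 genes were called. Without centring, 558 genes were called, 274 with the paternal and 284 with the D. rerio allele higher, since the median of all genes then moved by 0.127 on the log2 scale. The excess of D. rerio calls therefore depends largely on the centring. Each allele column was scaled on its own by the authors, so neither split measures the overall balance of the alleles.

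**Figure D1:**
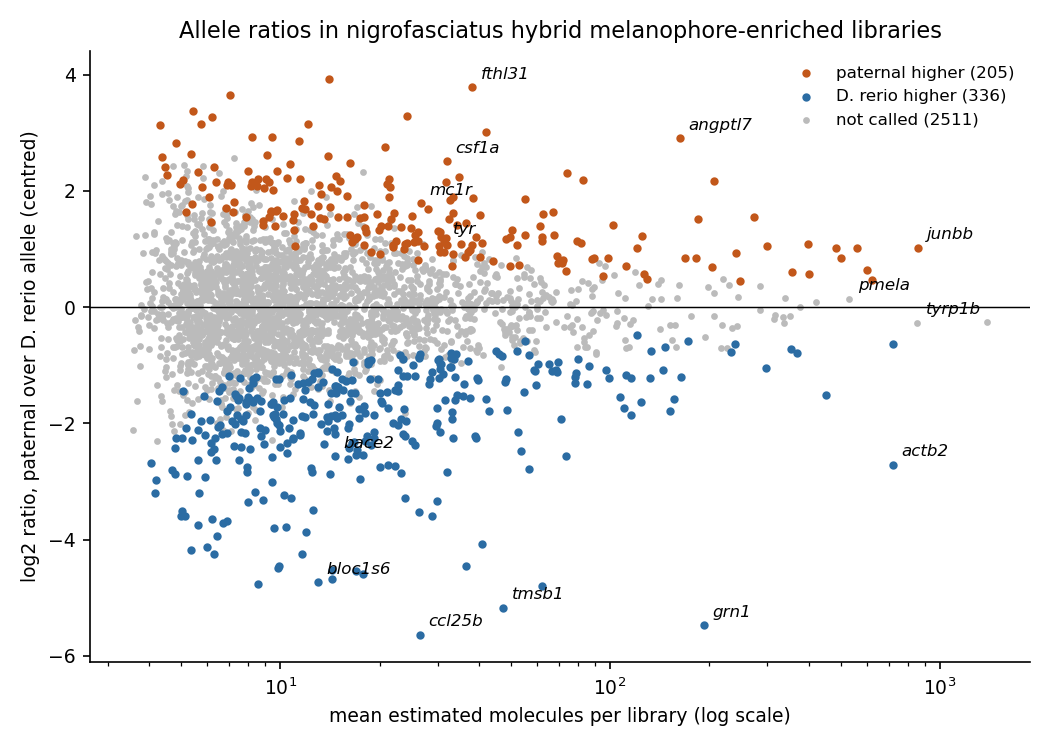
Log2 ratio of the paternal over the D. rerio allele (y axis, centred) against mean estimated molecules per library (x axis, log scale) for 3052 genes in the 3 melanophore-enriched libraries. Orange points are the 205 genes with the paternal allele higher, blue points the 336 with the D. rerio allele higher, and grey points were not called.

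Genes with more molecules were called more often. With the genes split into 4 sets of 763 by molecules, 9.57% were called in the set with the fewest (3.58 to 7.17 per library), at a median standard error of 0.615, and 32.5% in the set with the most (19.9 to 1390), at 0.284. The shares of the gene lists below are set against all genes and were not matched for molecules. At 30 tested genes under 5% of molecules were paternal, and at 4 genes over 95% were. Of the 26 of those 30 that could be tested in unenriched skin, 22 were under 5% there too. All 4 genes over 95% could be tested in skin, where 1 was over 95%.

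Genes of melanin synthesis and the melanosome were called about as often as all genes, with 15% called against 17.7%. Of 36 such genes in the file 20 were tested, 1 had the paternal allele higher and 2 the D. rerio allele higher, with a median log2 ratio of -0.263 against -0.0469 over all genes tested. Of 20 melanophore markers 17 were tested, with 2 called in each direction (23.5%, against 17.7% of all genes) and a median of -0.343. The lists overlap, and tyr is on both.

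tyr encodes tyrosinase, which starts melanin synthesis. It had paternal values of 622, 1926 and 1244, against D. rerio values of 368, 719 and 474 in the same libraries (replicates 3, 4 and 5). The paternal allele was higher in each library, with a log2 ratio of 1.12 ± 0.27 (mean of n = 3, SE from the fit to 12 libraries, limma adjusted p = 0.013). The call was lost without replicate 4 (0.96, limma adjusted p = 0.229), without replicate 5 (1.02, limma adjusted p = 0.154) and without weights (1.01, limma adjusted p = 0.0757).

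mc1r encodes the receptor for melanocyte-stimulating hormone. Its paternal values were 1574, 1200 and 1416, against 491, 167 and 481 for D. rerio. The 2 sets did not overlap, and the ratio was 1.79 ± 0.37 (limma adjusted p = 0.0037), which makes 80.06% of its molecules paternal.

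bace2 encodes a protease that cuts Pmel and, in zebrafish, restrains melanophore growth. Its paternal values were 329, 64 and 73, against D. rerio values of 1181, 674 and 699. The D. rerio allele was higher in every library, and the ratio was -2.57 ± 0.37 (limma adjusted p = 0.000285).

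bloc1s6 encodes a subunit of BLOC-1, a complex that sorts cargo to pigment organelles. Its paternal values were 9, 2 and 0, against 1180, 789 and 574 for D. rerio, so nearly all of its assigned reads were D. rerio. The ratio of -4.73 ± 0.51 (limma adjusted p = 2.63e-05) depends on the molecules added to each allele, since the paternal allele was near 0, and it was -6.60 with 0.1 added in place of 0.5.

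trpm1b, on the melanophore marker list, encodes an ion channel, and gpnmb encodes a melanosome glycoprotein that is also on the iridophore list. trpm1b had paternal values of 780, 583 and 680, against 1429, 968 and 1609 for D. rerio, a ratio of -1.07 ± 0.25 (limma adjusted p = 0.00898). gpnmb had 1284, 1977 and 1294 against 4402, 3418 and 2304, a ratio of -1.20 ± 0.35 (limma adjusted p = 0.0323). Both stood lower on the paternal allele in each library. The call of trpm1b was lost without replicate 5 (-0.89, limma adjusted p = 0.109), and that of gpnmb without replicate 3 (-0.93, limma adjusted p = 0.0790) or replicate 5 (-1.395, limma adjusted p = 0.08).

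Several abundant melanin genes were not called, with ratios from -1.04 to 0.87. tyrp1b had paternal values of 32336, 17267 and 33638, against 35909, 17482 and 38837 for D. rerio, a ratio of -0.27 ± 0.10 that missed the threshold (limma adjusted p = 0.0933). pmela, the melanosome fibril gene, had 28482, 14121 and 17734 against 19147, 11878 and 16426 (0.15 ± 0.11, limma adjusted p = 0.382). dct stood at -1.04 ± 0.32 (limma adjusted p = 0.0542) and tyrp1a at 0.87 ± 0.31 (limma adjusted p = 0.0954). A p above the threshold does not show that the alleles were equal.

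**Figure D2:**
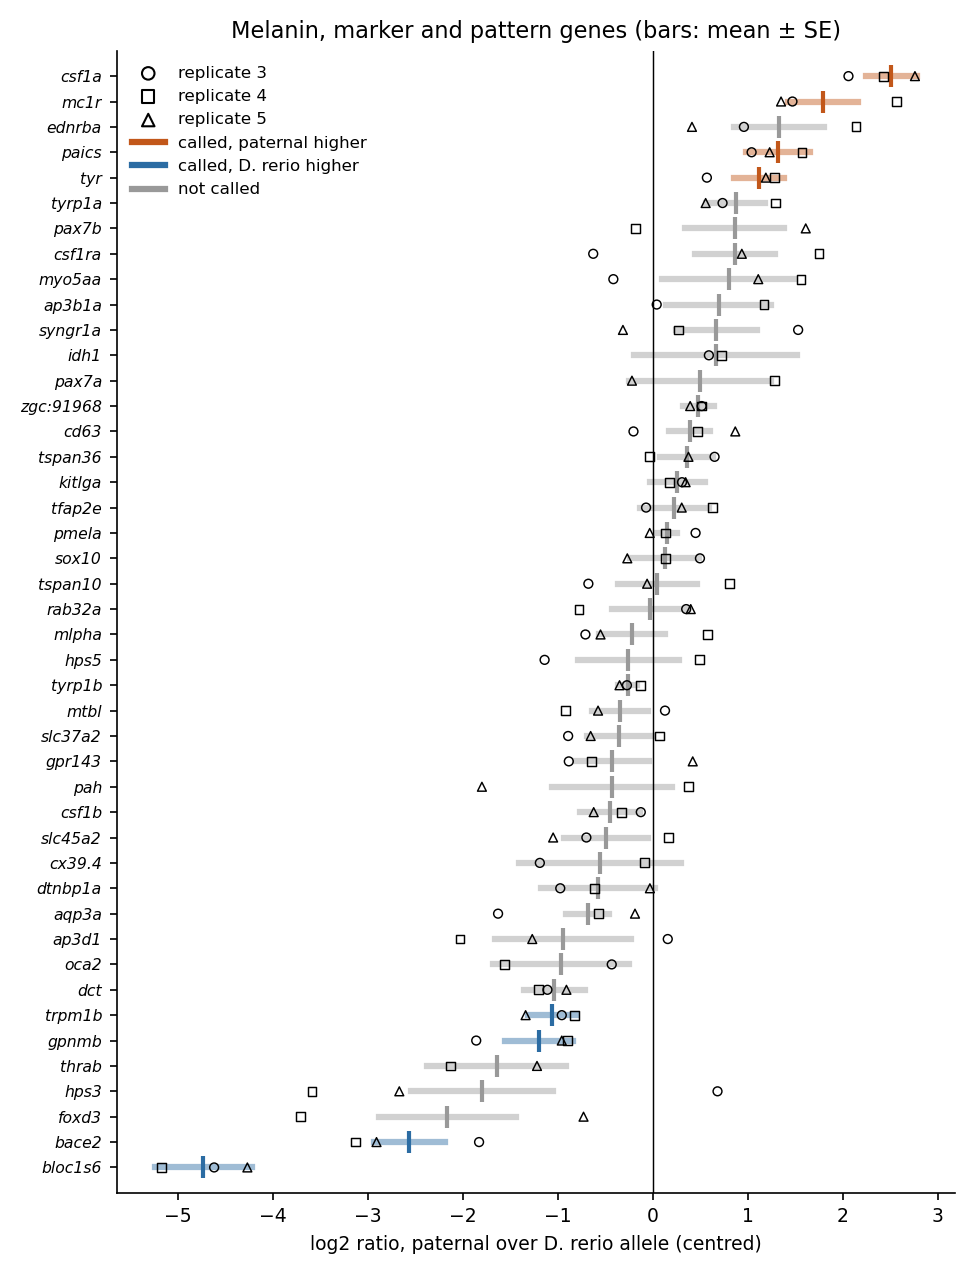
Log2 ratio of the paternal over the D. rerio allele (x axis) for the tested genes of the melanin, melanophore marker and pattern lists. Vertical ticks and bars are the fitted mean ± SE, open symbols the 3 libraries; csf1a stands at the top at 2.51 and bloc1s6 at the bottom at -4.73.

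Of the 36 genes of pigment pattern formation in the file 17 were tested. At 3 of them the paternal allele was higher (csf1a, mc1r and paics) and at none the D. rerio allele. The share called was 17.6%, against 17.7% of all genes, of which 6.72% were paternal higher and 11% D. rerio higher, and the median was 0.355. csf1a encodes a ligand of the Csf1 receptor, on which xanthophores depend in zebrafish. Its paternal values were 333, 2599 and 1568, against 38, 425 and 179 for D. rerio. Replicate 3 had far less of both alleles, and its D. rerio value of 38 was below the 90.48 estimated for 1 molecule. Its ratio of 2.06 therefore depends on the molecules added to each allele. The ratio was 2.06, 2.43 and 2.76 in the 3 libraries and 2.51 ± 0.27 in the fit (limma adjusted p = 4.92e-05). paics, a purine synthesis gene, had 352, 1122 and 2663 against 132, 334 and 1008 (1.32 ± 0.33, limma adjusted p = 0.0131). Its call was lost without replicate 4 (1.19, limma adjusted p = 0.139) or replicate 5 (1.39, limma adjusted p = 0.098). The paralogous ligand csf1b stood at -0.45 ± 0.32 (limma adjusted p = 0.368), the receptor csf1ra at 0.86 ± 0.42 (limma adjusted p = 0.183), and the Kit ligand gene kitlga at 0.26 ± 0.29 (limma adjusted p = 0.584).

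Among the genes with the highest values, actb2, a cytoplasmic actin gene, was the most uneven. Its paternal values were 8443, 6286 and 5282, against D. rerio values of 51275, 38045 and 31310, and the ratio was -2.72, -2.71 and -2.70 in the 3 libraries (fit -2.71 ± 0.08, limma adjusted p = 3.34e-11). junbb, an AP-1 subunit, had 27993, 37647 and 44418 against 12030, 16503 and 20733 (1.03 ± 0.11, limma adjusted p = 2.55e-05). The libraries agreed closely at both genes. cebpb, a transcription factor, stood at -0.63 ± 0.12 (limma adjusted p = 0.00218), a call lost without replicate 4 (-0.52, limma adjusted p = 0.123). fosab, which had the highest value of any gene, stood at -0.25 ± 0.10 (limma adjusted p = 0.0982). It was called with the replicate number as a block (-0.31, limma adjusted p = 0.00568) and without replicate 3 (-0.255, limma adjusted p = 0.0264).

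The 12 genes with the largest paternal excess, a minimum of 10 molecules and 1 sign in all libraries ran from 3.79 to 2.24. fthl31, of the ferritin heavy chain family, had 3010, 2055 and 2081 on the paternal allele, against 168, 110 and 104 on the D. rerio allele. Its ratio of 3.79 ± 0.25 (limma adjusted p = 2.69e-07) was near that in skin (3.86), iridophore-enriched (3.58) and xanthophore-enriched libraries (3.28). angptl7, which encodes a secreted angiopoietin-like protein, had 3032, 10194 and 12433 against 440, 1111 and 1517 (2.90 ± 0.19, limma adjusted p = 2.69e-07). midn, a nuclear protein gene, had 6399, 3245 and 3179 against 1013, 682 and 537 (2.31 ± 0.17, limma adjusted p = 1.1e-06). The others were si:dkey-21a6.5 (3.29), the organic cation transporter gene slc22a2 (3.15), the translation helicase gene eif4a1a (3.02), the actin-severing cofilin gene cfl1 (2.76), aadac (2.60), csf1a, the Runt factor gene runx3 (2.48), the DNA demethylase gene tet2 (2.25) and the protease gene ctsk (2.24). Among these, cfl1 lost its call without replicate 4 (1.83, limma adjusted p = 0.128) and slc22a2 without weights (2.925, limma adjusted p = 0.0662).

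The 12 genes with the largest D. rerio excess ran from -5.63 to -3.86. ccl25b, a chemokine gene, had paternal values of 7, 14 and 4, against 331, 1896 and 2333 for D. rerio (-5.63 ± 0.51, limma adjusted p = 5.62e-06). tmsb1, of the actin-binding thymosin family, had 14, 53 and 99 against 1762, 3466 and 3013 (-5.17 ± 0.31, limma adjusted p = 2.02e-07). actr3, a subunit of the Arp2/3 actin nucleator, had 16, 14 and 31 against 912, 1039 and 1352 (-4.59 ± 0.37, limma adjusted p = 1.9e-06). At these genes the paternal allele held under 2% of the molecules (0.56%, 1.93% and 1.74%). Where the paternal allele is near 0 the size of the ratio, and so the order of the genes, depends on the molecules added to each allele, while the 12 calls held with 0.1 and with 2 added. ccl25b stood at -7.14 with 0.1 and -3.72 with 2 molecules added, rps10 at -6.26 and -3.03, and actr3 at -5.55 and -3.15. grn1, with more paternal reads, moved less, to -5.65 and -4.95.

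grn1, a granulin gene, had far more reads: 1294, 88 and 105 on the paternal allele, against 25096, 7572 and 7972 on the D. rerio allele (-5.47 ± 0.41, limma adjusted p = 1.1e-06). The chemokine gene cxcl19 had 547, 0 and 8 against 5021, 1162 and 1534 (-4.46 ± 0.49, limma adjusted p = 0.000282) and could not be tested in the other kinds of library of this hybrid. Replicate 3 had the highest paternal value at both. The rest of the 12 were bloc1s6, the ribosomal gene rps10 (-4.68), the MHC class II gene mhc2b (-4.54), another gene, known only by a clone name (-4.51), zgc:171679 (-4.24), the matrix gene emilin2a (-4.08) and the PDZ-LIM gene pdlim5b (-3.86). MHC, ferritin, keratin, hsp70 and globin genes belong to families with near-identical copies, and how reads that fit more than 1 copy were counted is not given in the sources used here, so their allele values are uncertain. Other named genes, among them actb2, tmsb1 and the ribosomal protein genes, were not checked for close copies, and the same limit may hold for them.

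Of 81 ribosomal protein genes in the file 77 were tested, and 44.2% were called, against 17.7% of all genes. Of the 77, 11 had the paternal allele higher and 23 the D. rerio allele, with a median of -0.452. rps10 had paternal values of 5, 14 and 1, against 1177, 832 and 785 for D. rerio. rps27l stood at -3.79, rpl38 at -3.68 and rps24 at -2.45, the last not called without replicate 4 (-2.175, limma adjusted p = 0.0754). Subunit genes of 1 ribosome thus went both ways, as rps16 (1.58, limma adjusted p = 7.83e-05) and rpl27 (1.73, limma adjusted p = 0.0037) show; these 2 were chosen after their values were seen.

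Immediate early and heat shock genes, which rise when tissue is dissociated, were called at 13 of 35 tested (37.1%), 8 with the paternal and 5 with the D. rerio allele higher (median 0.240), against 6.72% and 11% of all genes. The list holds fosab and junbb, at 1390 and 860 molecules, and 32.5% of the set of genes with the most molecules were called. Of the 8 with the paternal allele higher, junbb was described above. The 4 called members farthest from 0 were all D. rerio higher. hsp70.2 had 51, 170 and 113 on the paternal allele, against 500, 2029 and 2085 on the D. rerio allele (-3.60 ± 0.29, limma adjusted p = 1.9e-06), and hsp70.3 (-2.55) and hsp70l (-1.81) were also lower on the paternal allele. fosl1a stood at -1.89, a call lost in 5 of 10 alternatives, among them the replicate block (limma adjusted p = 0.0535) and the fit without replicate 5 (limma adjusted p = 0.114).

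Leukocyte genes were called at 9 of 21 tested (42.9%), 2 with the paternal and 7 with the D. rerio allele higher (median -0.400), against 6.72% and 11% of all genes. Besides ccl25b, grn1 and cxcl19, the MHC class II invariant chain gene cd74a had 14884, 6524 and 5710 on the paternal allele, against 25852, 18299 and 19117 on the D. rerio allele (-1.52 ± 0.15, limma adjusted p = 8.55e-06). The ratio was -1.43 in skin, where the leukocyte genes summed to 81891, 58499 and 57481, as given above.

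Keratinocyte genes were called at 8 of 17 tested (47.1%, against 17.7% of all genes), 4 in each direction (median -0.207). epcam, an epithelial adhesion gene, stood at -4.79, and cyt1l (3.93), cyt1 (2.42) and krt5 (1.55), all keratin genes, at the paternal side. Replicate 3 had too few molecules for a ratio at epcam, cyt1l and cyt1, so their values rest on replicates 4 and 5. epcam had 13, 207 and 75 on the paternal allele, against 154, 7216 and 1278 on the D. rerio allele. krt5 had 1006, 22720 and 7461 on the paternal allele, against 363, 7201 and 2139 on the D. rerio allele, so that replicate 4 held most of its reads. Without replicate 4 its call was lost (1.54, limma adjusted p = 0.328), and cyt1 was not called in 3 of 9 alternatives, among them the replicate block (limma adjusted p = 0.0551) and 2 molecules added (1.505, limma adjusted p = 0.0602).

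Dermal fibroblast and scale genes were called at 5 of 16 tested (31.2%, against 17.7% of all genes), 2 with the paternal and 3 with the D. rerio allele higher (median -0.433). lum, a proteoglycan gene, had 2438, 1329 and 7995 against 710, 626 and 3668 (1.098 ± 0.18, limma adjusted p = 0.000659). col6a1 stood at 1.29, col5a1 at -1.51 and sparc at -0.76, which lost its call without replicate 4 (-0.58, limma adjusted p = 0.0841).

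The pigment lists of other cells are read against the 17.7% of all genes called, 6.72% with the paternal and 11% with the D. rerio allele higher. Of 11 iridophore markers tested, 1 was called paternal higher (pnp4a, 1.03, a purine nucleoside phosphorylase gene) and 2 D. rerio higher (lypc, -1.93, and gpnmb), a share of 27.3%, with a median of 0.426. The call of pnp4a was lost without replicate 3 (0.96, limma adjusted p = 0.0715) without replicate 4 (0.82, limma adjusted p = 0.181) and with the 3 libraries fitted alone (limma adjusted p = 0.0715). Of 15 xanthophore markers, 2 were called paternal higher (ghrb, 3.38, and bscl2l, 1.32) and 1 D. rerio higher (sprb, -0.86), a share of 20%, with a median of 0.298. ghrb had paternal values of 2, 295 and 648, against 1, 5 and 26 for D. rerio, at a mean of 5.45 molecules. Its ratio therefore rests on replicates 4 and 5, with a D. rerio allele near 0. bscl2l had ratios of 0.0466, 0.898 and 1.94 in replicates 3, 4 and 5, and its call was lost without weights (0.96, limma adjusted p = 0.103). sprb had values of 7 and 16 in replicate 3 and its call was lost in 5 of 10 alternatives, among them the replicate block (limma adjusted p = 0.0789). Of 11 purine synthesis genes, 3 were called, all paternal higher: paics, adsl (1.102) and pnp4a (27.3%), with a median of 0.472. The call of adsl was lost without any one of the 3 replicates (0.90 to 1.21, limma adjusted p = 0.0807 to 0.218) with the block (limma adjusted p = 0.0508) and with no minimum of molecules (limma adjusted p = 0.0619). Of 13 pteridine and carotenoid genes, bscl2l and sprb were called, 1 each way (15.4%, median -0.567). The globin gene hbba1 (1.86) was called among 2 erythrocyte genes tested, and 0 of 1 endothelial, 0 of 4 glial and neuronal and 0 of 2 muscle genes were called.

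Genes much higher in the melanophore-enriched libraries than in skin gave another view of the sorted cells. By summed value, 157 tested genes stood at least 4-fold above skin with no overlap between libraries, a rule chosen after the data were seen. Of these 34 (21.7%) were called, 17 in each direction, against 17.7% of all genes, with a median of -0.158. They included pigment genes (mc1r, tyr, trpm1b, gpnmb, bace2) and genes of macrophages (spi1b at 1.17, c1qc at -1.07, mfap4 at -3.49 and grn1). The rule compares with skin only. In iridophore-enriched libraries the mean values of mc1r, trpm1b and gpnmb were higher (2543, 8017 and 17660, against 1776, 2016 and 4893 in melanophore-enriched libraries). Those of tyr and bace2 were lower there (48.33 and 721, against 1784 and 1007). ctsd, a lysosomal protease gene, had 25525, 21753 and 14376 on the paternal allele, against 22556, 8692 and 6471 on the D. rerio allele (0.85 ± 0.22, limma adjusted p = 0.0152). lgmn, another lysosomal protease gene, had 3197, 1853 and 1373 against 8300, 5806 and 3860 (-1.63 ± 0.18, limma adjusted p = 2.55e-05).

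Allele ratios in the melanophore-enriched libraries resembled those of whole skin of the same hybrid. Of the 541 called genes 531 could be tested in skin, where 428 were called in the same direction and 0 in the opposite direction. In skin 21.2% of 8676 genes were called in either direction, a wider set of genes. The spread was estimated from the same 12 libraries, so the calls in melanophore-enriched and skin libraries are not independent. In a direct test of the difference, melanophore-enriched minus unenriched, 0 of 2984 genes (0%) were called by limma, and 187 had an unadjusted p under 0.05. With the replicate block 1 gene was called. The median standard error of a difference was 0.557 on the log2 scale. A count of 0 does not show that the ratios were the same.

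scinla, of the gelsolin family of actin-severing proteins, came nearest. It had paternal values of 813, 2589 and 4913 and D. rerio values of 3031, 3129 and 1641 in melanophore-enriched libraries, against paternal 14028, 11898 and 10053 and D. rerio 2357, 1835 and 1523 in skin. The difference was -2.73 ± 0.44 (limma adjusted p = 0.063). In the melanophore-enriched libraries its ratio ran from -1.96 to 1.42, a wide spread, while skin held 2.38 to 2.71. csf1a had a ratio of 2.06 to 2.76 in melanophore-enriched libraries, against 0.385 to 0.489 in skin, with no overlap, where 12.7% of all genes had none. The difference of 2.06 ± 0.38 was not called (limma adjusted p = 0.14). scinla and csf1a are named here after their values were seen.

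**Figure D3:**
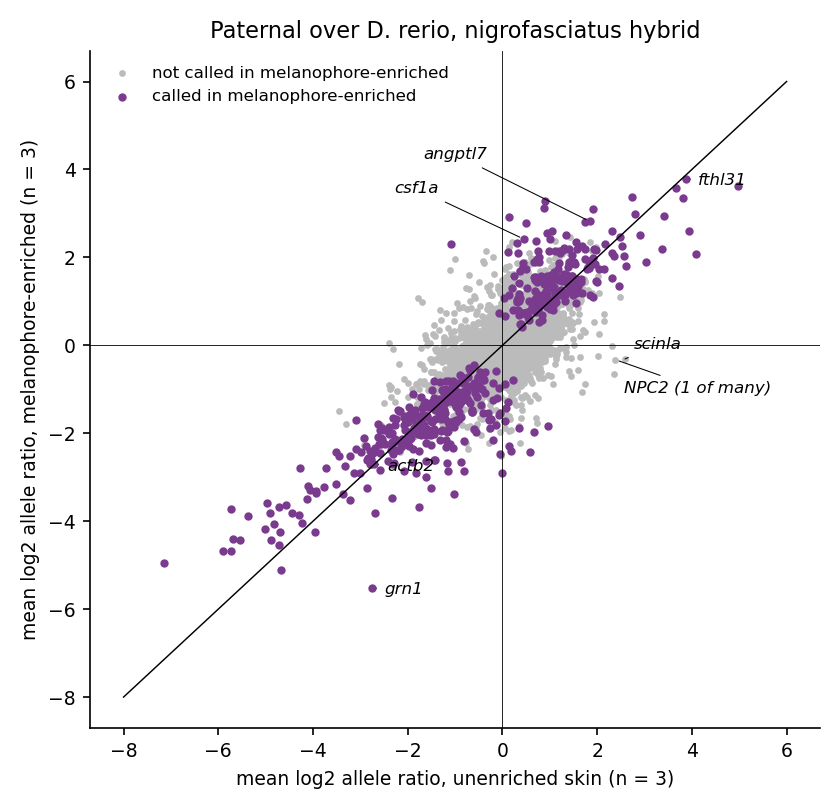
Mean log2 ratio of the paternal over the D. rerio allele in the 3 melanophore-enriched libraries (y axis) against the 3 unenriched skin libraries (x axis), 1 point per gene. Purple points are genes called in melanophore-enriched libraries; grn1, among them, lies below the line of equal ratios. scinla and NPC2 (1 of many), which were not called, lie to the right of the line.

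Against iridophore-enriched libraries 12 of 2568 genes (0.467%) differed, 9 (0.35%) with a higher paternal share in the melanophore-enriched libraries and 3 (0.117%) with a lower one. Of the 12, 10 had ratios that did not overlap between the groups, against 12.9% of all genes. Of 474 genes called in melanophores and tested in iridophores, 360 were called in the same direction there and 1 in the opposite. In iridophores 25.2% of 5105 genes were called in either direction, again a wider set, with the spread estimated from the same libraries.

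csf1a leaned to the paternal allele in each melanophore-enriched library and in 1 of 3 iridophore-enriched libraries. In xanthophore-enriched libraries 75% of its molecules were paternal, at a mean value of 797, but the gene could not be tested there. In iridophore-enriched libraries its paternal values were 2311, 1627 and 1298 and its D. rerio values 1627, 2081 and 1772. At each replicate number these libraries thus had a higher summed value than the melanophore-enriched ones, most of all in replicate 3. The ratio was 2.06, 2.43 and 2.76 in melanophore-enriched, against 0.25, -0.44 and -0.53 in iridophore-enriched libraries, and the difference was 2.81 ± 0.32 (limma adjusted p = 0.00278). The gene could not be tested without replicate 4 or 5, and stayed called without replicate 3.

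rdh10a, a retinol dehydrogenase gene, had 71.3% paternal molecules against 11.6% in iridophore-enriched libraries, a difference of 4.20 ± 0.55 (limma adjusted p = 0.00919). Its ratio was 0.70 and 1.68 in melanophore-enriched replicates 4 and 5, since replicate 3 had too few molecules, against -2.72, -2.53 and -3.26 in iridophore-enriched libraries. glula, a glutamine synthetase gene, had ratios of 1.98, -0.61 and -0.40 against -2.41, -2.48 and -2.74 (difference 2.98 ± 0.49, limma adjusted p = 0.0105). adsl, a purine synthesis gene, had 0.55, 1.08 and 1.31 against -1.17, -1.77 and -1.17 (2.55 ± 0.44, limma adjusted p = 0.0178). In each the iridophore-enriched libraries leaned to D. rerio. cpn1, a carboxypeptidase gene, differed by 2.40 ± 0.47 (limma adjusted p = 0.0428), a call lost with the replicate block (limma adjusted p = 0.126), and angptl7 by 2.04 ± 0.41 (limma adjusted p = 0.0428). Iridophore marker genes summed to 37645, 19891 and 30757 in the melanophore-enriched, against 639545, 565215 and 337638 in the iridophore-enriched libraries.

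NPC2 (1 of many), of the cholesterol-binding NPC2 family, went the other way. It had ratios of -1.45, 0.35 and 0.12 in melanophore-enriched, against 2.68, 2.75 and 4.42 in iridophore-enriched libraries, a difference of -3.73 ± 0.60 (limma adjusted p = 0.0105). scinla differed by -2.76 ± 0.56 (limma adjusted p = 0.0444). With replicate 4 or 5 left out 0 of the genes were called in this comparison (1341 and 1474 genes tested), and without replicate 3 there were 9, of which 6 were among the 12. The difference of adsl was among those not called without replicate 3 (2.72, limma adjusted p = 0.0945). The calls nearest the threshold were the least stable: cpn1 lost its call in 8 of 10 alternatives, angptl7 in 7 of 9 and scinla in 6 of 10, left-out replicates included.

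Against xanthophore-enriched libraries 2 of 1949 genes (0.103%) differed. aox6, of the aldehyde oxidase family, had paternal values of 445, 295 and 679 and D. rerio values of 270, 159 and 237 in melanophore-enriched libraries, against paternal 417, 167 and 94 and D. rerio 4098, 3550 and 3034 in xanthophore-enriched libraries. The paternal allele was higher in each melanophore-enriched library and the D. rerio allele in each xanthophore-enriched library. The difference was 5.08 ± 0.60 (limma adjusted p = 0.00175). The call was lost without replicate 4 (limma adjusted p = 0.0662) or replicate 5 (limma adjusted p = 0.173). The other gene, atf7ip, differed by 3.88 ± 0.68 (limma adjusted p = 0.0438) with under 10 molecules in both groups, and is named because the count is so low. Xanthophore markers, aox6 among them, summed to 10173, 19155 and 39836 in the melanophore-enriched, against 106442, 75226 and 136054 in the xanthophore-enriched libraries, and their part in the result was not tested. With the replicate block 4 genes were called.

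**Figure D4:**
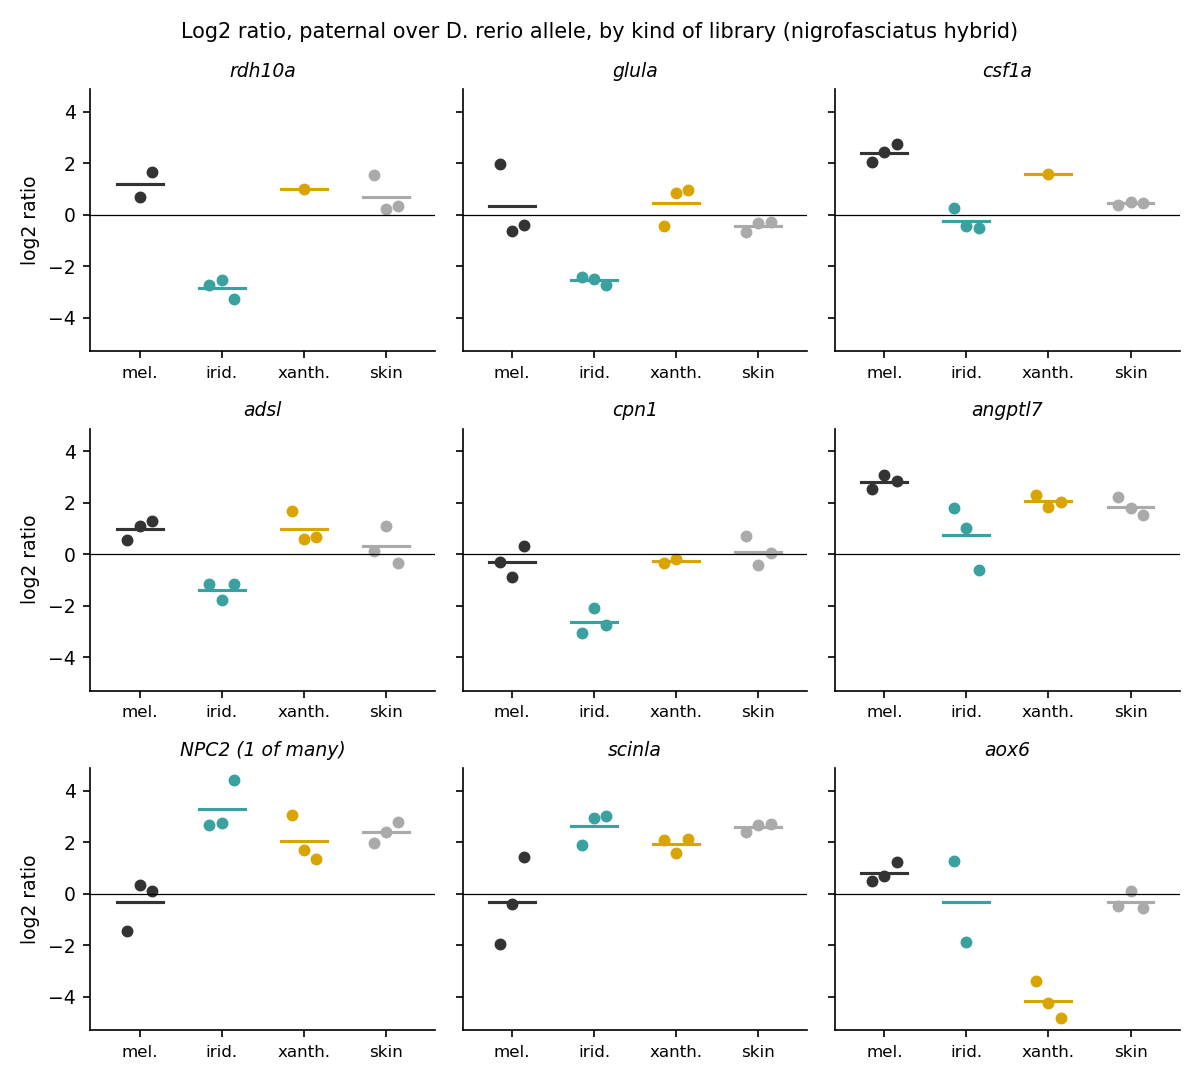
Log2 ratio of the paternal over the D. rerio allele (y axis) by library for the 9 genes named in the iridophore and xanthophore comparisons. Columns are melanophore-enriched, iridophore-enriched, xanthophore-enriched and unenriched skin libraries of the nigrofasciatus hybrid; points are libraries, lines their means, and libraries with too few molecules are missing.

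In melanophore-enriched libraries of the other hybrids, fewer of these genes were called. Of 541 genes called, 470 could be tested in the aesculapii hybrid, where 79 were called in the same direction and 8 in the opposite one, with 7.86% of all its genes called. In the albolineatus hybrid 102 and 11 of 463 were called (12.1% of all genes), and in the kyathit hybrid 124 and 20 of 457 (15.3%). Estimated molecules ran from 32518 to 140507 in aesculapii, 50250 to 125240 in albolineatus and 52216 to 238312 in kyathit libraries. In nigrofasciatus they ran from 68453 to 128062. The part of depth in these counts was not tested. In a direct test, nigrofasciatus minus the mean of the other 3 hybrids, 258 of 1938 genes (13.3%) differed, 109 (5.62%) with a higher and 149 (7.69%) with a lower paternal share in nigrofasciatus. Of these, 109 genes had ratios that did not overlap, against 10.6% of all genes. Leaving out replicate 3, 4 or 5 gave 162, 92 and 100 calls among 1059, 755 and 833 genes tested.

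csf1a had ratios of 2.06 to 2.76 in the nigrofasciatus hybrid, against -0.27 to 0.49 in aesculapii, -0.62 to 2.50 in albolineatus and -2.69 to 0.34 in kyathit hybrids. The fitted difference was 2.71 ± 0.47 (limma adjusted p = 0.000566), and the groups overlapped through 1 albolineatus library. It stayed called in the 6 alternatives where it could be tested. With any replicate left out it had too few molecules to be tested. bace2 had -3.13 to -1.83 in nigrofasciatus, against -0.57 to 0.61 in aesculapii, -0.16 to 0.54 in albolineatus and -0.63 to -0.42 in kyathit hybrids, with no overlap and a difference of -2.47 ± 0.43 (limma adjusted p = 0.000566). The fitted ratio of mc1r was 1.79 in nigrofasciatus against 0.90, 0.77 and 0.91 in aesculapii, albolineatus and kyathit hybrids, and that difference was not called (0.93 ± 0.42, limma adjusted p = 0.159).

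actr3 leaned to D. rerio in the nigrofasciatus hybrid and to the father's allele elsewhere in 8 of 9 libraries. Its ratio was -4.98 to -4.09 in nigrofasciatus, against 0.79 to 2.18 in aesculapii, -0.50 to 1.19 in albolineatus and 1.46 to 2.02 in kyathit hybrids (difference -5.86 ± 0.42, limma adjusted p = 1.81e-08). tmsb1 had -5.65 to -4.65 in nigrofasciatus, against -0.81 to 0.00 in aesculapii, -0.54 to 0.16 in albolineatus and 0.995 to 1.59 in kyathit hybrids (-5.38 ± 0.29, limma adjusted p = 1.37e-10). bloc1s6 differed by -3.97 ± 0.46, rps10 by -4.04 ± 0.39, rps27l by -4.10 ± 0.48 and ccl25b by -4.45 ± 0.47 (limma adjusted p at most 6.67e-06). None of the 6 overlapped the other hybrids. The sizes depend on the added molecules: with 0.1 and 2 added, the difference of bloc1s6 was -5.77 and -2.35 and that of actr3 -6.88 and -4.24, both called.

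Several of the genes with a higher paternal share in nigrofasciatus had a paternal allele at or near 0 in another hybrid. ppp1cbl, of the protein phosphatase 1 catalytic family, had paternal values of 2219, 893 and 967 in the nigrofasciatus hybrid, against 0 in each aesculapii library, 595, 430 and 544 in albolineatus and 1, 5 and 5 in kyathit. Its D. rerio values in nigrofasciatus were 1543, 825 and 1246, with ratios of 0.39, -0.01 and -0.50, so neither allele was higher throughout. tmsb4x had 6117, 4206 and 5028 paternal in nigrofasciatus, against 0 in each kyathit library, where its D. rerio values were 11511, 10608 and 14187. cope, a coatomer subunit gene, was at 0 on the paternal allele in each aesculapii library, against 1101, 853 and 1115 in nigrofasciatus. These 3 differences (4.64, 3.58 and 2.72, each called) depend on the added molecules and on 1 or 2 hybrids. mpeg1.1, a macrophage gene, had 1.01 to 1.23 in nigrofasciatus, against -5.39 to -2.47 in albolineatus, -1.91 to 0.82 in aesculapii and -1.19 to -0.45 in kyathit hybrids (2.72 ± 0.38, limma adjusted p = 6.16e-05). ptgs2a, a prostaglandin synthase gene, differed by 2.94 ± 0.70 (limma adjusted p = 0.0102), with ratios of 0.25 to 4.51 in nigrofasciatus, against -0.18 and 1.22 in aesculapii, -0.96 and -1.24 in albolineatus and -1.60 and -0.28 in kyathit hybrids, each from 2 libraries with enough molecules. Its ratios overlapped those of the aesculapii hybrid, and within nigrofasciatus its alleles did not differ past the threshold (2.33, limma adjusted p = 0.0569).

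**Figure D5:**
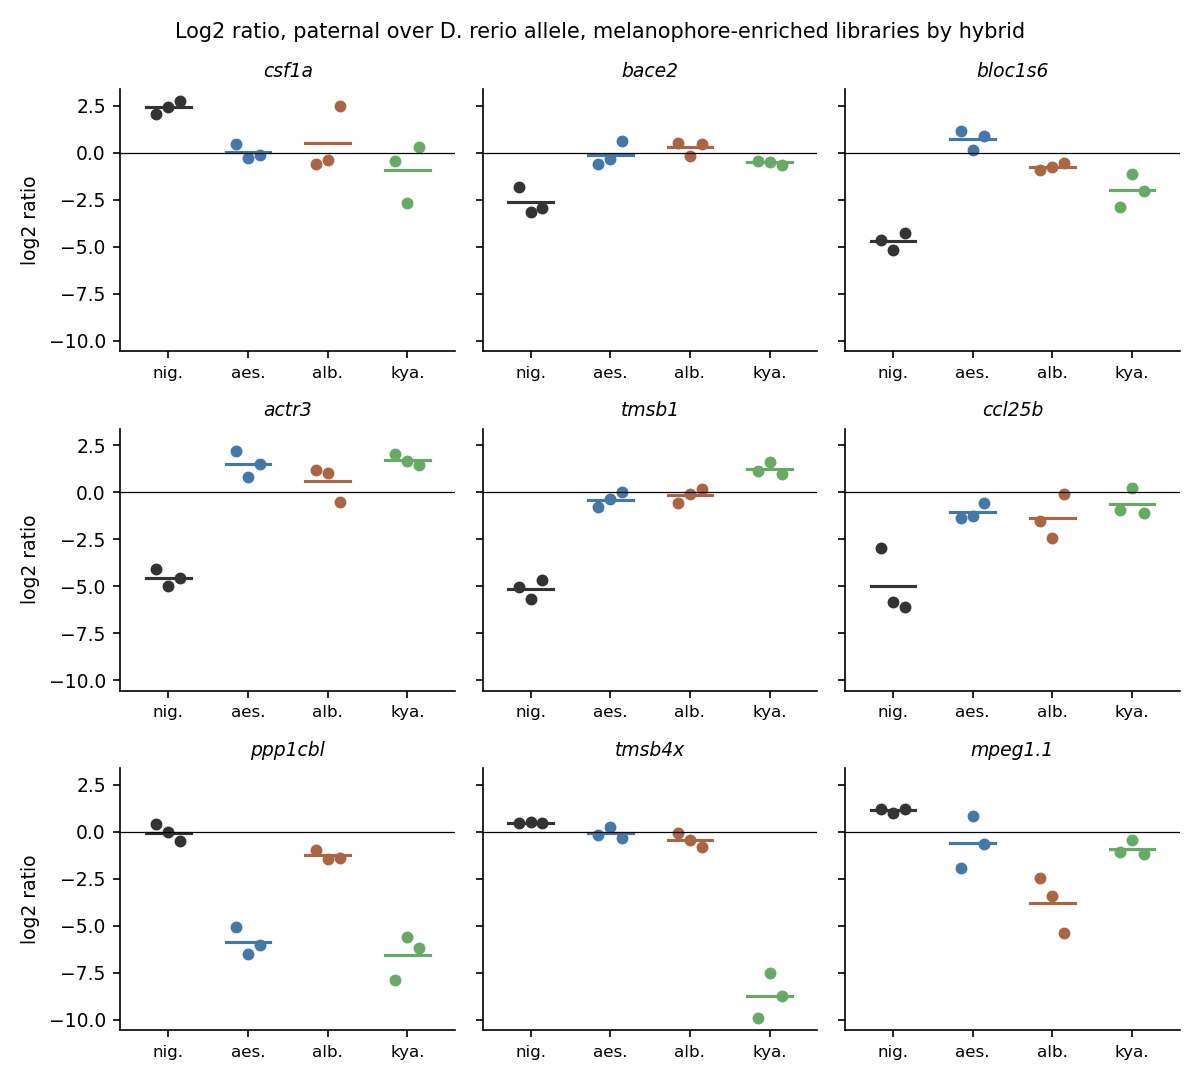
Log2 ratio of the paternal over the D. rerio allele (y axis) by library in melanophore-enriched libraries of the nigrofasciatus, aesculapii, albolineatus and kyathit hybrids for 9 genes. Points are libraries and lines their means; bace2, bloc1s6, actr3, tmsb1 and ccl25b lie lowest in nigrofasciatus, and tmsb4x lies lowest in kyathit.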

How the data were processed

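The deposited tables hold 19629 genes in 96 allele columns. Their values are scores: per the submitters' processing notes, which name featureCounts, DESeq2 1.44.0 and GRCz11 without their roles, and from the values, they are allele counts that the authors scaled by a size factor per column and rounded. Median-ratio size factors recomputed over the columns lay between 0.997 and 1.003. Which aligner, allele assignment or filters were used is not given in the sources used here. Low values do not step evenly in all columns, so no count test was run. Per the labels' protocols, libraries were made from polyA RNA with SMART-seq2 and sequenced as paired-end Nextera preparations.

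The value per molecule of each library was estimated from the spread of paternal shares around their group mean, over genes with summed values of 300 to 3000 in each library and a mean share of 0.1 to 0.9. This estimate also takes in real spread between replicates, and the depth in reads is unknown. Ratios from under 3 molecules were left out. limma 3.58.1 (R 4.3.3) was fitted to the ratios of 12 libraries of the hybrid, or of 12 melanophore-enriched libraries, with a mean per group, precision weights by molecules (lowess span 0.3) and robust moderation. The procedure was run on simulated data with known differences and no spread between replicates beyond counting. There it missed most 2-fold differences between alleles, and most between melanophore-enriched libraries and skin. A gene that was not called may therefore still differ. The labels make the replicate number a batch shared by groups, so the number was also fitted as a block; correlations of same-numbered deviations with the melanophore-enriched libraries ran from -0.0309 to 0.102 over 1146 genes.

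Members and gene lists were chosen with earlier results of these data known. Genes are named if among the 12 largest in each direction with 10 or more molecules and 1 sign, the 5 highest in value, called members of the melanin, melanophore and pattern lists, up to 4 called members of other lists, and the 6 largest in each direction of each difference test. Alternatives were another pseudocount or minimum, no centring, no weights, the block, the 3 libraries alone, and each replicate left out. Reference sequences were not used here.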

Additional observations from a re-analysis of the deposited data

Results flagged for a closer look

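Genes whose allele ratio differed between groups by a direct test are listed here, with the log2 difference and no explanation. Melanophore-enriched minus iridophore-enriched, the differences were 4.20 for rdh10a, 2.98 for glula, 2.81 for csf1a, 2.55 for adsl, 2.40 for cpn1, 2.04 for angptl7, -3.73 for NPC2 (1 of many) and -2.76 for scinla. Melanophore-enriched minus xanthophore-enriched, the difference was 5.08 for aox6. Without replicate 4 or 5, 0 genes were called in either comparison, with fewer genes tested. Calls were lost in 8 of 10 alternatives for cpn1, 7 of 9 for angptl7 and 6 of 10 for scinla. Nigrofasciatus minus the other hybrids, the higher genes were ppp1cbl (4.64), tmsb4x (3.58), ptgs2a (2.94), cope (2.72), mpeg1.1 (2.72) and csf1a (2.71). The lower genes in that comparison were actr3 (-5.86), tmsb1 (-5.38), ccl25b (-4.45), rps27l (-4.10), rps10 (-4.04) and bloc1s6 (-3.97).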

How the results depend on the processing

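The 541 allele calls were 558 without centring, 516 and 547 with 0.1 and 2 molecules added, 409 with a minimum of 10 molecules, 557 with no minimum, 579 without weights, 395 from the 3 libraries alone, 503 with a rarer allele of 5% or more, and 486 with the replicate block, of which 462 were shared. Leaving out a replicate gave 202 to 430 calls (72 to 164 paternal higher, 130 to 266 D. rerio higher), with fewer genes tested because both remaining libraries needed 5 molecules. The 79 named values were recomputed under the alternatives, which gave 838 values. Of these 838, 0 reversed sign, 66 lost their call and 2 gained one.

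The count against skin was 1 (lower) with 2 molecules added, with 10 or more molecules and with the replicate block, and 0 to 1 (0 to 1 lower) with a replicate left out; it stayed 0 without unenriched replicate 3, whose pigment markers stood apart, an alternative chosen after seeing the data. Against iridophores the count was 7 (1 lower) with 0.1 molecules added and with no minimum, and 0 to 9 (0 to 5 higher, 0 to 4 lower) with a replicate left out. Against xanthophores it was 4 (1 lower) without weights and with the replicate block and 1 (1 higher) with no minimum. There, 1 lower gene was called without centring, with 2 molecules added and with 10 or more molecules. With a replicate left out the count against xanthophores was 0 to 1 (0 to 1 higher, 0 lower). Against the other hybrids, leaving out a replicate gave 92 to 162 (37 to 64 higher, 55 to 98 lower), against 258. The cause of these moves was not tested beyond the smaller number of genes tested. The replicate block changed the calls of 6 of 79 named values, given beside them, and no other named call. Median standard errors of the difference tests were 0.477 to 0.597. Genes under 5 molecules in 2 of the 3 libraries were not tested.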
